A study of Mus musculus with 4 samples.

Results

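The genes described here encode the cytosolic ribosomal proteins of the mouse pancreas, 69 genes out of 22180 measured on Affymetrix arrays. A gene was taken where the array annotation gave a row exactly 1 symbol beginning with Rpl or Rps and followed by a digit, a or p. Symbols of the ribosomal protein S6 kinases and of pseudogenes were left out, and where a gene had several rows, the brightest on average was used. Of the 69, 35 encode subunits of the large and 23 of the small ribosomal subunit, 9 are paralogs named after a ribosomal protein, and 2 (Rps19bp1, a partner of Rps19, and Rps23rg1, a gene retroposed from Rps23) are not subunits of the ribosome.

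The arrays were hybridised with total RNA of whole pancreas from 2 Ifrd1 null mice and 2 wild-type mice, all 8 weeks old and all treated with cerulein. Cerulein is an analog of the hormone cholecystokinin that over-stimulates acinar cells and causes pancreatitis; it was injected into the peritoneum at 100 µg/kg, 6 times a day on alternate days, and tissue was taken on day 5, in the proliferative phase of the response to injury. Untreated pancreas was not analysed here, so every comparison is between genotypes within injured tissue. The labels give no allele, strain or sex, and they call the samples biological replicates. Ifrd1 encodes a transcriptional co-regulator, and its relative Ifrd2 has been described on inactive ribosomes of rabbit cells.

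The ribosome is built from ribosomal RNA and about equal numbers of each ribosomal protein, and cells keep the supply of these proteins in balance. Many of them begin with a terminal oligopyrimidine (TOP) tract, a cytosine at the first base followed by a run of pyrimidines, through which the kinase complex mTORC1 and the RNA-binding protein Larp1 control their translation. Acinar cells make large amounts of secreted enzyme and are rich in ribosomes. Arrays of total RNA measure the amount of a message and not its translation.

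The Ifrd1 row stood at 6.99 and 7.09 in Ifrd1 null arrays 1 and 2, against 9.04 and 9.07 in wild-type arrays 1 and 2 (log2 level), a difference of -2.02 ± 0.11 (SE). That difference follows the labels, although its limma adjusted p over all genes was 0.138. The only gene past adjusted p 0.05 was Uty, a gene of the Y chromosome (adjusted p = 0.0206), which is 0.00451% of all genes. Xist, the RNA of the inactive X chromosome, was at 10.15 and 9.58 in the null arrays against 2.56 and 3.54 in the wild-type arrays, the pattern of female mice in the null group and of male mice in the wild-type group, and genotype and sex cannot be told apart. The acinar enzymes Ctrb1 and Cpa1 marked the labelled tissue, with Cpa1 between 13.37 and 13.65 in the 4 arrays. In whole tissue, fewer cells of a type and less RNA per cell cannot be told apart.

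The messages of the ribosomal proteins differed little between genotypes. Over the 69 genes the difference, Ifrd1 null minus wild type on the log2 scale, had a median of -0.035, quartiles of -0.105 and 0.044 and a range from -0.54 (Rpl30) to 0.52 (Rps16). 29 genes were higher and 40 lower in the null arrays, so 42.0% were higher, beside 47.2% of all genes. None of the 69 passed adjusted p 0.05 in limma (smallest adjusted p 0.721). At an unadjusted p under 0.05, Rpl26 was higher and Rpl30 lower, 2 of 69, beside 6.91% of all genes. The sign of the median turned with the scaling of the arrays: it was 0.001 after quantile normalization and 0.044 after cyclic loess, and -0.050 after centring each array on its median.

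In 12 of the 69 genes both null arrays lay above both wild-type arrays (17.4%, beside 16.1% of all genes), in 20 both lay below (29.0%, beside 19.7% of all genes), and in 37 the groups overlapped. These counts moved with the arrays used: without null array 1, 28 genes lay above and 24 below, and without null array 2, 19 lay above and 43 below, where a single null array has to clear the wild-type arrays. Among the 54 genes whose mean level was above the median of all genes (4.67), 6 lay above and 18 below, beside 8.82% and 29.1% of all genes above that level. Without null array 1 those counts were 19 above and 22 below, and without null array 2 they were 13 and 37. After cyclic loess they were 14 above and 8 below. For these alternatives the shares over all genes are given only at a level of 8 or more, further on. There the shares of all genes also rose when a null array was left out.

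**Figure D1:**
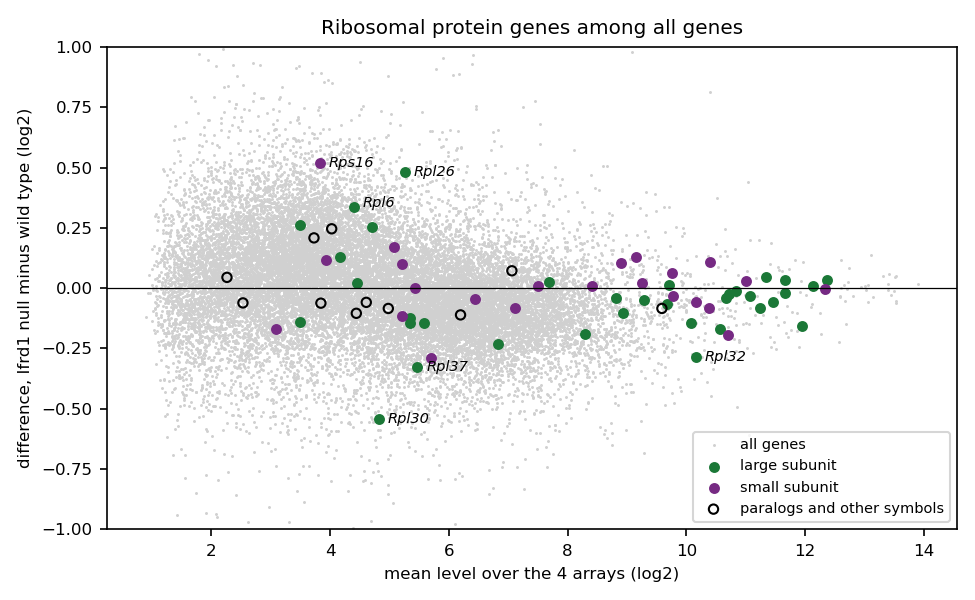
Difference between genotypes (Ifrd1 null minus wild type, log2) against mean level over the 4 arrays (log2) for all genes in grey and for the ribosomal protein genes in colour; 46 genes with a difference beyond 1 in either direction are not drawn. The ribosomal protein genes at a level of 8 or more lie between -0.29 and 0.13, and Rpl26, Rpl30, Rps16 and Rpl6, with the widest differences, lie at levels below 6.

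Many of these genes are among the brightest rows of the arrays. 34 of them had a mean level of 8 or more, a bound chosen after the values were seen: 21 of the large subunit, 12 of the small subunit and the paralog Rpl6l. A level is the signal of a row's probes, so the order of levels among genes is not an order of message abundance. The 5 brightest are given array by array. Rpl21, a large-subunit protein, stood at 12.31 and 12.46 in the null arrays and 12.33 and 12.37 in the wild-type arrays. Rps6, the small-subunit protein that the S6 kinases phosphorylate, stood at 12.30 and 12.37 in the null arrays and 12.30 and 12.38 in the wild-type arrays, a difference of 0.00 ± 0.10 (SE) with a 95% interval from -0.28 to 0.28. For both genes the groups overlapped.

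Rpl28, a large-subunit protein without a counterpart in baker's yeast, had 12.00 and 12.28 in the null arrays and 12.19 and 12.06 in the wild-type arrays. Rpl4, which lines the tunnel through which the new protein leaves, had 11.71 and 12.02 in the null arrays and 12.01 and 12.03 in the wild-type arrays, a difference of -0.16 ± 0.14 (SE). Null array 1 alone was low for Rpl4, and without it the difference was -0.0025; as a median over the gene's rows it was 0.01. Rpl41, the shortest of the ribosomal proteins, had 11.68 and 11.64 in the null arrays and 11.65 and 11.70 in the wild-type arrays, again with overlap.

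The starts of these genes are shown because the TOP tract lies there and is the feature that the messages are best known to share. RefSeq promoter sequences (GRCm38.p6) were at hand for 54 of the 69 genes. Each line below runs from 60 bases before the annotated start to 20 bases from it onward, 5′ to 3′ on the gene's own strand. Capitals mark a pyrimidine tract that opens with C within 10 bases of the start. The marking begins at the start itself where its base qualifies, even if pyrimidines precede it, and otherwise at the nearest such C. The first 5 are the brightest genes in that table, Rpl26 is the member with the smallest unadjusted p, and Rps27 and Rps27l are a pair of paralogs.
Rps6, chr4:86857348-86857427, minus strand: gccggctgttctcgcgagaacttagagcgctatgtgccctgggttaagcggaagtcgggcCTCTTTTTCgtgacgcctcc
Rpl28, chr7:4792905-4792984, plus strand: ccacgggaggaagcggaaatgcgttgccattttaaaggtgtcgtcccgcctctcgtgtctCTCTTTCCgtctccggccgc
Rpl4, chr9:64173327-64173406, plus strand: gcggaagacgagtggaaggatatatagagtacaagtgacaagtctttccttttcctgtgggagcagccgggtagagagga
Rpl41, chr10:128549149-128549228, minus strand: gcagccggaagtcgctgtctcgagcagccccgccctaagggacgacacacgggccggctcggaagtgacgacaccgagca
Rpl15, chr14:18270967-18271046, minus strand: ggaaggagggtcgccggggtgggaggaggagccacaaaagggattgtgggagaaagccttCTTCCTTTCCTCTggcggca
Rpl26, chr11:68901506-68901585, plus strand: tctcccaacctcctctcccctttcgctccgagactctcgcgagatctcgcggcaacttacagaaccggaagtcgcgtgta
Rps27, chr3:90213629-90213708, minus strand: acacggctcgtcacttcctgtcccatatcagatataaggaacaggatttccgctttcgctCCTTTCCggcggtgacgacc
Rps27l, chr9:66946026-66946105, plus strand: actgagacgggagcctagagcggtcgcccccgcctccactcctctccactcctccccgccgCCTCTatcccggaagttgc

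In Rps6, Rpl28, Rpl15 and Rps27 the annotated start is a C followed by at least 4 pyrimidines. In these genes pyrimidines also stand directly before the start, so the run itself opens upstream of it. In Rps27l the nearest tract opens at base 2, and another, unmarked, opens within 10 bases before the start. In Rpl4, Rpl41 and Rpl26 no such tract opens within 10 bases of the annotated start, though in Rpl4 a pyrimidine run that opens further upstream ends shortly before it. The annotated start may differ from the start used in pancreas. Of the 54 genes with a sequence, 11 (20.4%) had C at the start followed by at least 4 pyrimidines, beside 3.01% of the 27025 genes in the table. Allowing such a tract to open anywhere within 10 bases of the start gave 32 of 54 (59.3%), beside 34.4% of all genes. The motif CCGGAAG, searched on both strands of the 300 bases from 250 before to 50 after the start, was present in 23 of 54 (42.6%), beside 9.93% of all genes. The TATAAA box, searched the same way, was present in 6 of 54 (11.1%), beside 15.7% of all genes. These matches are letters in a window and not measured sites.

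The genotype difference was near 0 with or without these features. The 11 genes with a tract at the start had a median difference of -0.035, with 3 higher and 8 lower in the null arrays, against -0.011, with 21 higher and 22 lower, for the 43 genes without one. The 23 genes with CCGGAAG had a median of -0.021 and the 31 without it -0.024. No test was made of these differences.

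The ribosomal protein genes at a level of 8 or more lay close together. Their median difference was -0.035 and their range -0.29 (Rpl32) to 0.13 (Rps24). 24 of the 34 (70.6%) were within 0.1 of 0 in either direction and 33 (97.1%) within 0.2, and among the 1205 other genes at that level these shares were 39.5% and 69.5%. The 4 arrays spanned a median of 0.199 for a ribosomal protein gene and 0.356 for another gene at 8 or more. The sets were not matched on level: the median level was 10.38 for the 34 genes and 8.65 for the 1205 others. Some lists of other genes of protein synthesis, taken at any level, also varied less than those 1205 genes by these measures. The 21 translation factors and TOP genes described further on spanned a median of 0.182, with 52.4% within 0.1 and 85.7% within 0.2. The 23 further initiation factors spanned a median of 0.273, with 65.2% within 0.1 and 87.0% within 0.2. In both lists these shares were below those of the 34 ribosomal protein genes. Further lists described below were mixed. Of the 11 quality control genes 72.7% were within 0.1 and 81.8% within 0.2. For the 7 kinase and Larp genes these shares were 71.4% and 100%. For the 23 chaperones and assembly factors they were 34.8% and 100%. Shares as high as those of the 34 genes were thus also seen in other lists. This is a description of these 4 arrays, and no test was made of it. The 95% interval of the difference lay within 1.5-fold in either direction for 32 of the 34 genes and within 2-fold for all 34. Of all 69 genes, 51 had an interval within 1.5-fold and 66 within 2-fold.

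At that level 12 of the 34 genes were higher and 22 lower in the null arrays, and in 2 (5.88%) both null arrays lay above both wild-type arrays and in 11 (32.4%) below. The same shares over all genes at 8 or more were 5.25% and 33.8%, so with the deposited scaling both stood near the background. After quantile normalization 4 of the 34 lay above and 5 below, beside 12.1% and 20.3% of all genes at 8 or more. After cyclic loess 10 lay above and 3 below, beside 16.2% and 16.8%. Leaving out null array 1 gave 11 above and 15 below, beside 33.0% and 54.3% of all genes at 8 or more. Leaving out null array 2 gave 8 above and 23 below, beside 19.7% and 65.9%. Leaving out wild-type array 2 gave 4 above and 12 below, beside 9.93% and 39.0%. The direction depended on the scaling: 20 of the 34 were higher after quantile normalization and 27 after cyclic loess, with medians of 0.010 and 0.056, and 9 after median centring, with a median of -0.050. Over all 69 genes 45 kept their sign under the 4 scalings and 24 did not.

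Large and small subunit genes at 8 or more read differently in null array 1. For the 21 large-subunit genes the median difference was -0.041, with 5 higher and 16 lower, and for the 12 small-subunit genes it was 0.014, with 7 higher and 5 lower. Relative to the wild-type mean, the median over large-subunit genes was -0.095 in null array 1 and -0.004 in null array 2. Over small-subunit genes it was 0.067 in null array 1 and -0.030 in null array 2. Null array 1 was the lowest of the 4 arrays for 17 of the 21 large-subunit genes (81.0%) and for 3 of the 12 small-subunit genes (25%), and for 48.6% of the other genes of that level.

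The gap between the subunits thus lay in null array 1. Without it the medians were -0.004 for the large and -0.030 for the small subunit, and without null array 2 they were -0.095 and 0.067. The small-subunit median exceeded the large-subunit median under each scaling: 0.076 against 0.001 after quantile normalization, 0.113 against 0.045 after cyclic loess and -0.001 against -0.056 after median centring. The sign of each median therefore turned with the scaling, while the order of the subunits did not. The difference between subunits was not tested, because genes of 1 array are not replicates.

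**Figure D2:**
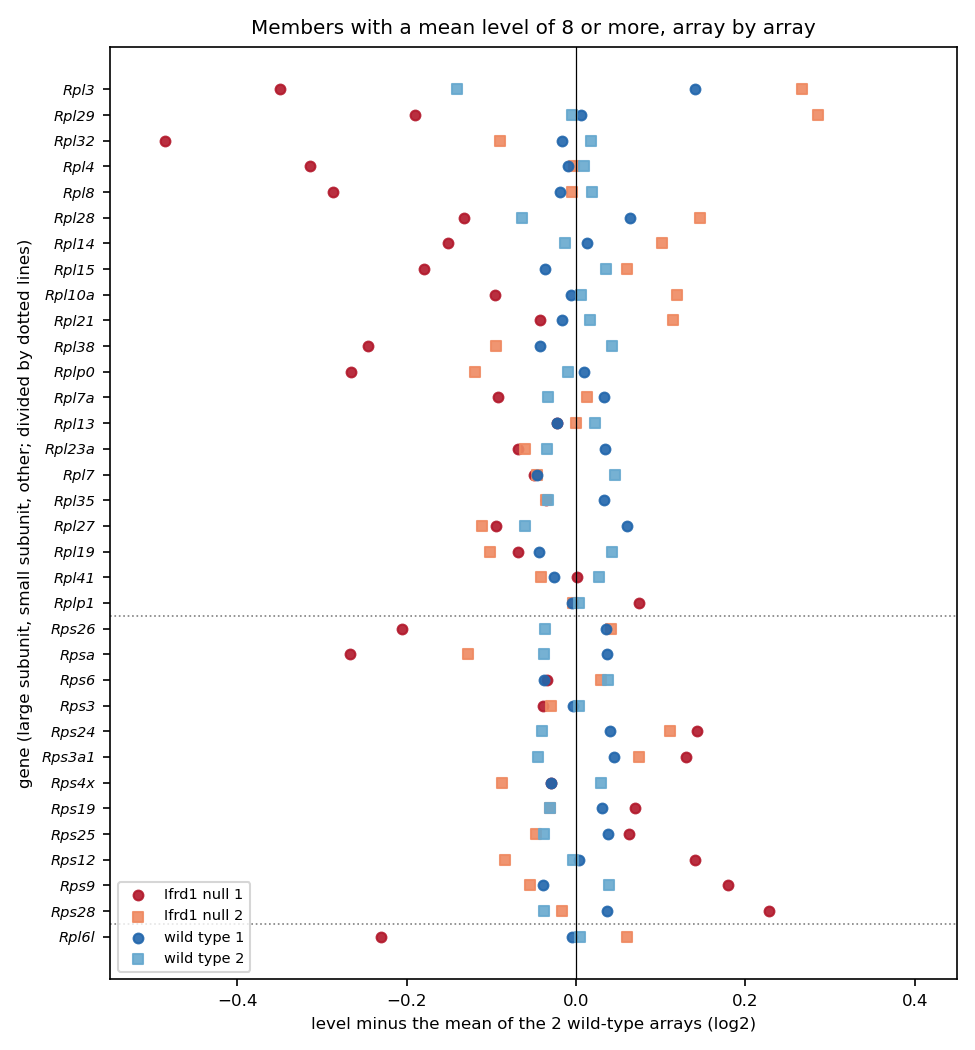
Level in each array minus the mean of the 2 wild-type arrays (log2) for the 34 ribosomal protein genes with a mean level of 8 or more, ordered within each subunit by the gap between the null arrays. Null array 1 (dark red circles) is the lowest array for 17 of 21 large-subunit genes and for 3 of 12 small-subunit genes, and the null arrays lie on opposite sides of the wild-type mean for genes such as Rpl3 and Rpl29.

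The stalk of the large subunit, made of Rplp0, Rplp1 and Rplp2, recruits the elongation factors. Rplp0 had 8.12 and 8.27 in the null arrays and 8.40 and 8.38 in the wild-type arrays, a difference of -0.19 ± 0.11 (SE), and the groups did not overlap. Rplp1 had 11.72 and 11.64 in the null arrays and 11.64 and 11.65 in the wild-type arrays, with overlap. Rplp2 lay on a dim row, with 3.34 and 3.91 in the null arrays and 3.21 and 3.51 in the wild-type arrays. The 3 stalk genes thus showed no common direction, and none passed the test. The Rplp0 difference shrank to -0.08 after cyclic loess and -0.12 after quantile normalization, and to -0.05 as a median over the gene's rows.

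Of the large-subunit genes above the median level, the most negative differences were those of Rpl30, Rpl37, Rpl32, Rpl34, Rplp0 and Rpl38, and none passed the test. Rpl32 had 9.82 and 10.21 in the null arrays and 10.29 and 10.32 in the wild-type arrays, a difference of -0.29 ± 0.17 (SE). Null array 1 made most of it, and without that array the difference was -0.09. Rpl37, a zinc-binding protein, had 5.22 and 5.39 in the null arrays and 5.49 and 5.78 in the wild-type arrays. Rpl38, whose loss in mice disturbs the patterning of the skeleton, had 10.41 and 10.56 in the null arrays and 10.61 and 10.70 in the wild-type arrays, a difference of -0.17 ± 0.11 (SE), which was -0.09 without null array 1 and -0.08 after cyclic loess. The Rpl37 difference was -0.18 without wild-type array 2. In Rpl37, Rpl32 and Rpl38 both null arrays lay below both wild-type arrays. Rpl34 had 6.85 and 6.58 in the null arrays and 6.87 and 7.02 in the wild-type arrays on its own row, a difference of -0.23 ± 0.15 (SE), which was -0.09 without null array 2, and -0.03 on a brighter row shared with a pseudogene. Rpl37a, another zinc-binding protein, differed in the other direction, with 4.86 and 4.79 in the null arrays and 4.51 and 4.64 in the wild-type arrays, a difference of 0.25 ± 0.11 (SE) close to the median level of all genes.

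Rpl3, which reaches the site where the peptide bond is made, differed more between mice of 1 genotype than between genotypes. It had 8.48 and 9.10 in the null arrays and 8.97 and 8.69 in the wild-type arrays, a difference of -0.04 ± 0.25 (SE). Rpl29 had 11.13 and 11.61 in the null arrays and 11.33 and 11.32 in the wild-type arrays; it is named for its gap between the null arrays, after its values were seen. In both genes null array 1 was lowest and null array 2 highest.

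Among the small-subunit genes, Rpsa, which also serves as a laminin receptor, had 10.53 and 10.67 in the null arrays and 10.84 and 10.76 in the wild-type arrays. Its difference was -0.20 ± 0.11 (SE) without overlap, and -0.11 after cyclic loess. Rps27, a zinc-finger protein, had 5.33 and 5.76 in the null arrays and 5.99 and 5.69 in the wild-type arrays, a difference of -0.29 ± 0.20 (SE) with overlap, which was -0.08 without null array 1, -0.51 without null array 2, -0.14 without wild-type array 1 and -0.44 without wild-type array 2. Neither passed the test.

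The widest positive differences of the small subunit above the median level were in Rps23, Rps24, Rps28, Rps3a1 and Rps29. Rps24, one of the genes mutated in human Diamond-Blackfan anaemia, had 9.23 and 9.20 in the null arrays and 9.13 and 9.05 in the wild-type arrays, a difference of 0.13 ± 0.10 (SE). Rps3a1 had 8.98 and 8.93 in the null arrays and 8.90 and 8.81 in the wild-type arrays. After cyclic loess the differences were 0.23 for Rps24 and 0.21 for Rps3a1. These 2 are the genes at 8 or more in which both null arrays lay above both wild-type arrays. Rps28 had 10.57 and 10.32 in the null arrays and 10.38 and 10.30 in the wild-type arrays, and Rps23, which sits in the decoding centre, had 5.46 and 4.85 in the null arrays and 4.76 and 5.21 in the wild-type arrays. The groups overlapped for both, and both differences turned negative without null array 1 (-0.02 for Rps28 and -0.13 for Rps23). Rps29 had 5.24 and 5.28 in the null arrays and 5.14 and 5.17 in the wild-type arrays, a difference of 0.10 ± 0.10 (SE).

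The 5 genes with a difference beyond 0.3 in either direction were Rpl30, Rps16, Rpl26, Rpl6 and Rpl37, and all lay at mean levels below 6. Rpl26 had 5.56 and 5.45 in the null arrays and 5.04 and 5.00 in the wild-type arrays, a difference of 0.48 ± 0.11 (SE), with a 95% interval from 0.20 to 0.77 and a limma adjusted p of 0.721. Rpl30 had 4.61 and 4.48 in the null arrays and 4.89 and 5.29 in the wild-type arrays, a difference of -0.54 ± 0.17 (SE), with an interval from -1.01 to -0.08 and the same adjusted p. In both the groups were apart, and Rpl30 kept its direction but moved to -0.34 without wild-type array 2. Rps16 had 3.77 and 4.39 in the null arrays and 3.51 and 3.61 in the wild-type arrays, a difference of 0.52 ± 0.24 (SE), which was 0.83 without null array 1 and 0.21 without null array 2. Rpl6 had 4.57 and 4.57 in the null arrays and 4.09 and 4.38 in the wild-type arrays, a difference of 0.33 ± 0.14 (SE), which was 0.19 without wild-type array 1.

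For some of these genes the arrays held a second reading. 8 members also had a brighter row whose annotation added pseudogene or unnamed copies to the gene, so that its signal cannot be assigned to the gene alone. Rpl26 read 10.52 and 10.70 in the null arrays and 10.61 and 10.62 in the wild-type arrays on its shared row, a difference of -0.01. Rps16 read 9.86 and 9.87 in the null arrays and 9.99 and 9.91 in the wild-type arrays on its shared row, a difference of -0.09. The positive differences of the own rows were thus not seen on either shared row. Rpl30 read 10.39 and 10.60 in the null arrays and 10.73 and 10.59 in the wild-type arrays on its shared row, a difference of -0.17, in the same direction as its own row and with overlap.

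Over the 8 genes the size of the difference had a median of 0.185 on the own row and 0.084 on the shared row, and it was smaller on the shared row in 7 of 8, Rpl13 being the exception. 5 of the 8 own rows lay below a level of 6. A further 9 genes had no row of their own but a row shared with such copies, and are no members: Rpl10, Rpl12, Rpl23, Rpl31, Rpl35a, Rpl36, Rps15a, Rps2 and Rps21. The other 5 symbols without an own row, Rpl13a, Rpl24, Rpl36a, Rpl36al and Rps27rt, shared their rows with other named genes and were not used. The shared rows of all 17 differed by -0.39 (Rps2) to 0.11 (Rpl10), and the 14 of them at 8 or more by -0.17 to 0.11. With these rows in place of the dimmer own rows, 78 genes had a median difference of -0.035 and 0 passed adjusted p 0.05, in an alternative chosen after the data were seen.

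**Figure D3:**
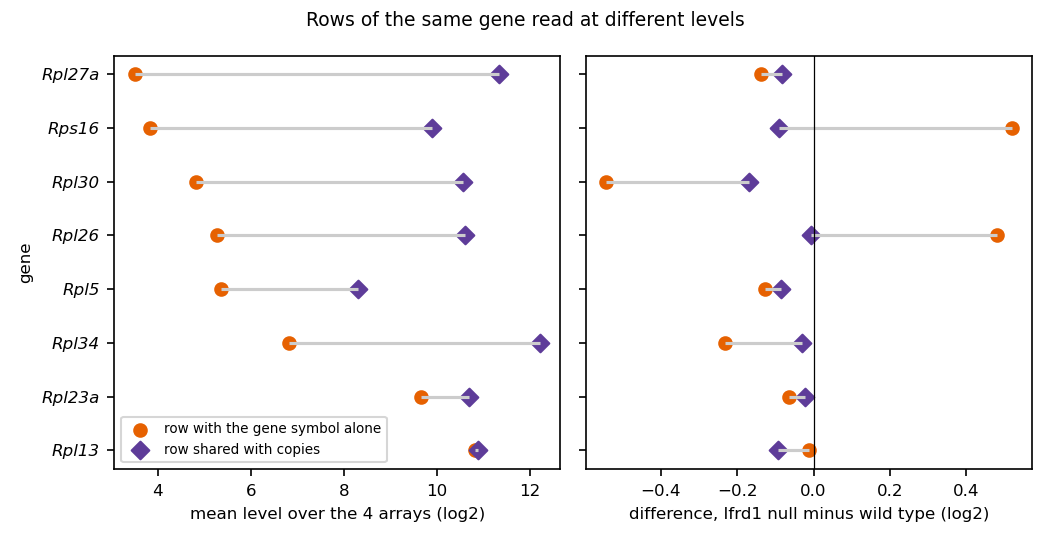
Mean level over the 4 arrays (left, log2) and difference between genotypes (right, Ifrd1 null minus wild type, log2) for the 8 members that have a row of their own (circles) and a brighter row shared with copies (diamonds). The differences of 0.48 for Rpl26 and 0.52 for Rps16 on the own rows stand beside -0.01 and -0.09 on the shared rows.

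Rows of 1 gene also differed widely where only its own symbol was annotated. 25 members had more than 1 row, and the brightest and the dimmest row of a gene lay a median of 4.35 log2 units apart, and over 4 units apart in 16 genes. The widest spread was in Rps26, 8.53 units. Rps12 had 8 rows, of which 6 held identical values. Taking the median over a gene's rows in place of the brightest gave a median difference of -0.024 over the 69 genes.

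15 members had a mean level at or below the median of all genes, where no detection call shows that a row is above background. They were Rpl6, Rpl11, Rpl27a, Rpl39, Rplp2, Rps15, Rps16 and Rps20 of the ribosome itself, the paralogs Rpl3l, Rpl10l, Rpl22l1, Rpl32l, Rpl39l and Rps4l, and Rps23rg1. Their differences ran from -0.17 to 0.52, with 9 higher and 6 lower in the null arrays. Rps15 had the widest gap between mice of 1 genotype, with 1.98 and 4.01 in the null arrays and 3.18 and 3.15 in the wild-type arrays. Rps18 followed at a higher level, with 7.17 and 7.84 in the null arrays and 7.53 and 7.46 in the wild-type arrays. In both, the null arrays lay on either side of the wild-type arrays.

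Several ribosomal proteins have a paralog that replaces them in particular tissues or takes part in ribosome assembly, and 6 listed pairs had both genes measured. Rpl6 with Rpl6l and Rpl32 with Rpl32l were not on that list of pairs. Rpl22 had 5.51 and 5.52 in the null arrays and 5.70 and 5.62 in the wild-type arrays, a difference of -0.14 ± 0.10 (SE). Its paralog Rpl22l1 had 4.29 and 4.01 in the null arrays and 3.95 and 3.86 in the wild-type arrays, a difference of 0.25 ± 0.14 (SE). The Rpl22l1 difference was 0.11 without null array 1 and 0.39 without null array 2. The groups were apart in opposite directions, neither gene passed the test, and Rpl22l1 lay below the median level. Rps27l, the paralog of Rps27, had 7.05 and 7.14 in the null arrays and 7.04 and 7.01 in the wild-type arrays, a difference of 0.07 ± 0.10 (SE), and 0.17 after cyclic loess.

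In the other pairs no difference passed the test. Rpl3l, the paralog of Rpl3 known from heart and skeletal muscle, had 3.75 and 3.87 in the null arrays and 3.87 and 3.87 in the wild-type arrays. Rpl39l, known from the testis, had 4.44 and 4.33 in the null arrays and 4.48 and 4.50 in the wild-type arrays, and Rpl39, on the X chromosome, had 4.44 and 4.49 in the null arrays and 4.49 and 4.40 in the wild-type arrays. Rps4x, the other member on the X chromosome, had 10.17 and 10.11 in the null arrays and 10.17 and 10.22 in the wild-type arrays, a difference of -0.06 ± 0.10 (SE), and its paralog Rps4l had 4.59 and 4.57 in the null arrays and 4.63 and 4.65 in the wild-type arrays. For neither X-linked gene did both null arrays lie above both wild-type arrays.

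Rpl7 had 9.26 and 9.26 in the null arrays and 9.27 and 9.36 in the wild-type arrays, and Rpl7l1, which takes part in ribosome assembly, had 4.66 and 5.21 in the null arrays and 5.10 and 4.94 in the wild-type arrays. Over the 9 paralogs 3 were higher and 6 lower in the null arrays, with a median difference of -0.062. The paralog Rpl6l had 9.40 and 9.69 in the null arrays and 9.63 and 9.63 in the wild-type arrays, and null array 1 was low as for most large-subunit genes at 8 or more. Rpl32l lay on a dim row, with 2.35 and 2.65 in the null arrays and 2.52 and 2.61 in the wild-type arrays.

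**Figure D4:**
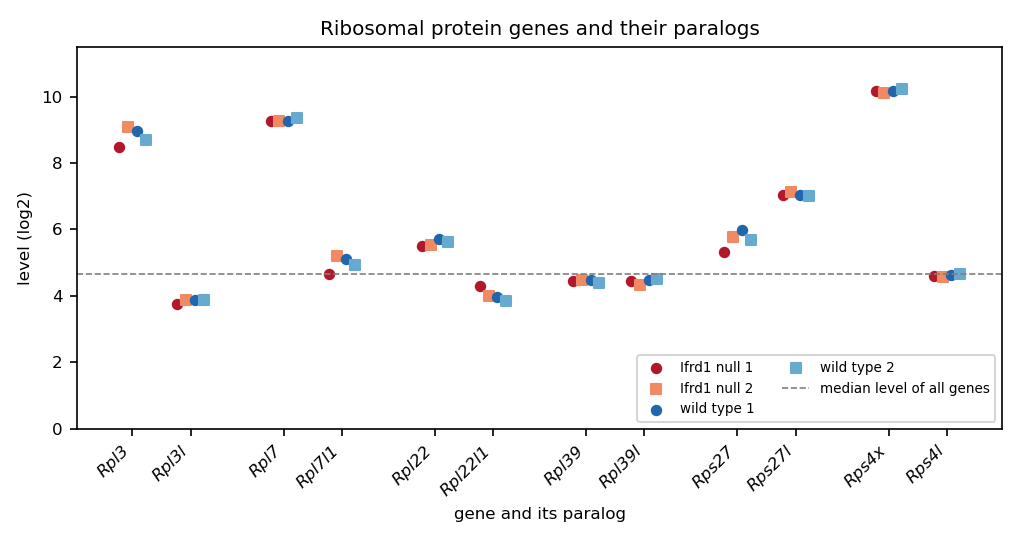
Level (log2) in each of the 4 arrays for 6 ribosomal protein genes and their paralogs, with the median level of all genes (4.67) as a dashed line. The 4 arrays span 0.65 in Rps27, 0.62 in Rpl3, 0.56 in Rpl7l1 and 0.43 in Rpl22l1, the widest of these 12 genes; heights of different genes come from different probes and are not to be compared as message abundance.

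Other genes of protein synthesis were set beside the members, from lists chosen with earlier results of these data known. Fau, which encodes a small-subunit protein fused to a ubiquitin-like protein, had 9.58 and 9.51 in the null arrays and 9.69 and 9.71 in the wild-type arrays, a difference of -0.15 ± 0.10 (SE). Of 21 translation factors and other genes known for TOP messages, 3 were higher and 18 lower in the null arrays (median difference -0.088), and none passed the test. Tpt1, a growth-related TOP gene, had 9.63 and 9.88 in the null arrays and 9.56 and 9.49 in the wild-type arrays, and Eif3f, a subunit of the initiation factor eIF3, had 9.01 and 8.99 in the null arrays and 9.14 and 9.17 in the wild-type arrays. The groups were apart in both, upward in Tpt1 and downward in Eif3f.

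Of 23 further initiation factors 7 were higher and 16 lower (median -0.068), and Eif3c had a difference of -0.31 ± 0.12 (SE). Of 23 chaperones and assembly factors of ribosomal proteins 10 were higher and 13 lower (median -0.043), with Nop53 at -0.16 and Sbds at -0.14. Of 11 genes of ribosome quality control and ribosome-associated stress 5 were higher and 6 lower (median -0.016); that list holds Ifrd1 itself, and Map3k20, a kinase that senses colliding ribosomes, differed by -0.25 ± 0.11 (SE). A list of 7 kinase and Larp genes held Rps6ka3, Rps6ka5, Rps6ka6, Rps6kb2, Larp1, Larp4 and Eef2k, so it was not limited to mTORC1 output. Of these 5 were higher and 2 lower (median 0.054), the 2 lower ones being Eef2k at -0.18 and Rps6kb2 at -0.10.

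The direction of most of these lists turned with the scaling or with 1 array. After quantile normalization and after cyclic loess the medians were 0.015 and 0.032 for the initiation factors, 0.018 and 0.015 for the chaperones and assembly factors, and 0.068 and 0.051 for the quality control genes. Without null array 1 the median was 0.049 for the initiation factors, 0.045 for the chaperones and assembly factors and 0.065 for the quality control genes. The median of the TOP genes stayed negative but was -0.020 after quantile normalization, -0.005 after cyclic loess and -0.043 without null array 1. The median of the kinase and Larp genes was -0.159 without null array 2 and -0.002 without wild-type array 1.

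The ribosome of mitochondria is encoded by a separate set of genes. Of 71 measured, 22 were higher and 49 lower in the null arrays (median -0.065), and 0 passed adjusted p 0.05 in limma. Mrpl39 differed by -0.44 ± 0.10 (SE) and Mrps2 by -0.53 ± 0.18 (SE), and the median over the 71 was -0.004 after quantile normalization, 0.006 after cyclic loess, -0.025 without null array 1, -0.102 without null array 2 and -0.019 without wild-type array 2. With all 4 arrays and the deposited scaling, 4 of the 71 were lower at an unadjusted p under 0.05, beside 6.91% of all genes in either direction. For scale, all genes above the median level had a median difference of -0.070, with 32.6% higher. Their median level was 6.26, beside 6.15 for the 71 genes. Genes other than the members at a level of 8 or more had a median of -0.098, with 24.6% higher. The median of all genes at 8 or more was -0.096, and it was -0.020 after quantile normalization and 0.008 after cyclic loess.

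Markers of several cell types differed between the 2 null arrays. Relative to the wild-type mean, the median of 7 acinar markers was -0.203 in null array 1 and 0.083 in null array 2, and that of 6 B and plasma cell markers was 1.14 in null array 1 and -0.921 in null array 2. The median of 8 stellate cell and fibroblast markers was 0.170 in null array 1 and -0.489 in null array 2, and that of 6 adipocyte markers was 0.731 in null array 1 and -0.466 in null array 2. The median of 7 macrophage markers was 0.038 in null array 1 and -0.588 in null array 2. For other marker sets the median lay on 1 side of the wild-type mean in both null arrays. The median of 5 duct markers was -0.226 in null array 1 and -0.488 in null array 2, with 4 of 5 lower in the null group (Krt19 -0.59, Cftr -0.49). The median of 6 endothelial markers was -0.272 in null array 1 and -0.251 in null array 2, with 6 of 6 lower. That of 6 islet markers was -0.133 in null array 1 and -0.336 in null array 2, with 4 of 6 lower. The islet genes split: both null arrays lay below both wild-type arrays in Ins2, Iapp and Chga, and above both in Gcg and Sst. All 7 macrophage markers had a lower mean in the null group. All 5 T cell markers had a higher one, with a median of 0.408 in null array 1 and 0.148 in null array 2. The median of the T cell markers was -0.271 in wild-type array 1 and 0.271 in wild-type array 2, and the groups overlapped for all 5. None of these markers passed the test. All 7 acinar markers were lower in null array 1 than in null array 2, as were 16 of the 21 large-subunit genes at 8 or more (76.2%) and 4 of the 12 small-subunit genes. So were 55.7% of the other genes at 8 or more and 61.9% of the translation factors and TOP genes. The share was 74.6% in the mitochondrial ribosome genes and 82.6% in the further initiation factors. The part of the cell type markers in the results for the ribosomal protein genes was not tested.

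**Figure D5:**
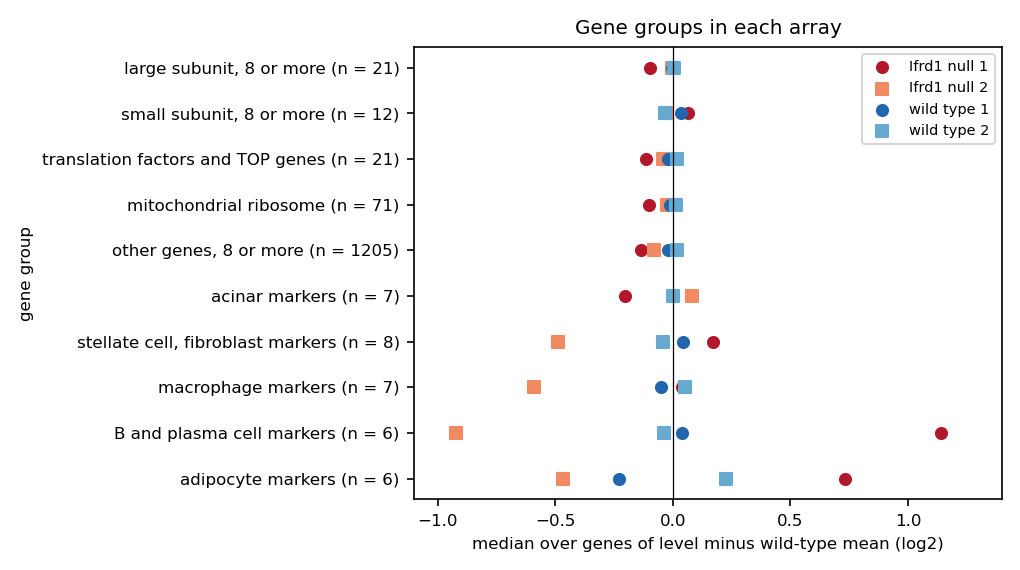
Median over the genes of a group of the level in each array minus the wild-type mean (log2), with the number of genes in brackets; TOP genes are genes other than the members whose messages are known for a terminal oligopyrimidine tract. The ribosomal protein groups stay between -0.095 and 0.067 in all 4 arrays, and B and plasma cell markers reach 1.14 in null array 1 and -0.921 in null array 2.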

How the data were processed

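Total RNA of 4 pancreas samples was hybridised to Affymetrix arrays after biotin labelling, per the labels' protocols. The values used are those the authors deposited per array and row, read here as log2 levels from their range; the sources used here do not give the log base, background correction, probe summary or normalization. The table held 41345 rows. The annotation gave 1 symbol to 23521 rows, several to 1814 and none to 16010. Rows with 1 symbol gave 22180 genes, each represented by its brightest row, with no filter on dim rows. 110 rows carried the 69 members, and 14 symbols of the rule occurred only on rows with several symbols.

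Groups were compared with limma 3.58.1 in R 4.3.3 (lmFit and eBayes, Ifrd1 null minus wild type, no covariates). P-values are two-sided and adjusted by Benjamini-Hochberg over all genes, and calls are made at 0.05; the error printed beside a difference is its moderated standard error (SE) and intervals are 95% intervals of the same fit. With 2 arrays against 2, an exact permutation test cannot go below p = 0.333, and so few arrays limit precision. P-values rest on the spread between these samples, with each gene's variance moderated toward a value drawn from all genes. 0 value columns lay outside the 4 samples.

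The members and lists were chosen with earlier results of these data known, so no pattern here is independent support for those results. Genes are named by a rule: the 5 brightest members, the 8 widest differences in each direction above the median level, the stalk genes, Rps6 and Rpsa, paralog pairs, X-linked members, the 3 widest gaps between the null arrays, the members at or below the median level, and the 2 smallest unadjusted p of each list. 217 list entries matched a measured gene and 28 did not. Rack1 was not analysed here. Alternatives were 3 further normalizations, the replicate number as a block, another moderation, another row rule, a filter on level and each array left out. Promoter sequences are from RefSeq (GRCm38.p6).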

Additional observations from a re-analysis of the deposited data

How the results depend on the processing

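Among the 12 alternatives run, those that kept all 4 arrays gave 0 ribosomal protein genes past adjusted p 0.05. The median difference of these genes ran from -0.069 without null array 2 to 0.044 after cyclic loess, so its sign turned. Genes past the threshold among all 22180 numbered 4 after cyclic loess, 5 after median centring, 5 with trend and robust moderation, 0 among genes above the median level and 0 to 0 with an array left out, against 1 as reported. Members with both null arrays above both wild-type arrays numbered 6 among genes above the median level and 15 to 28 with an array left out, against 12; members with both below numbered 13 after quantile normalization, 11 after cyclic loess and 24 to 43 with an array left out, against 20, where fewer arrays have to be cleared. Members at an unadjusted p under 0.05 numbered 2 after each of the 3 further normalizations, against 2 as reported. The cause of the other changes was not tested. With the replicate number as a block, 4 genes passed and 3 members had an unadjusted p under 0.05, and the block left the median at -0.035; deviations of same-numbered arrays correlated at r = -0.035 over all genes and -0.229 over the members, across genes, so the numbers were not taken as a pairing. Of 458 alternative values for the named members, 32 moved beyond the spread between arrays and 0 were called; of 187 for the medians of the comparison lists, 32 moved. The rows carry no detection calls, so dim rows may hold no signal of the gene.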
